A study of Mus musculus with 2 samples.

Results

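The enzymes that turn glucose into pyruvate and lactate, and those of the pentose phosphate pathway, were described in embryonic mouse kidney. The set holds 38 genes: the 10 steps of glycolysis with their paralogs, the phosphofructokinase-2 family that sets the level of an allosteric activator, lactate dehydrogenase, the catalytic E1 part of pyruvate dehydrogenase with its kinases, and the 7 pentose phosphate genes. The genes are those of a list of enzyme symbols, matched by gene identifier in both deposited gene tables. All 38 were found among the 43346 genes listed, of which 21474 are protein-coding.

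The data are total RNA-seq libraries from kidneys of mouse embryos of strain B6NCrl at 14.5 days, with no mutant allele or treatment named. By the sample descriptions each of the 2 libraries came from the 2 kidneys of a single pup, and 10 ng of RNA longer than 200 nt entered each preparation, with spike-in RNAs added. The labels call the pair biological replicates 1 and 2, collected 2 days apart, and describe each as a male and female pool while also naming 1 pup. There is 1 group, so no condition was compared with another, no test between groups was possible, and the spread given is that between these 2 samples.

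The 38 genes held 274808 and 273024 expected counts (reads shared out over the features they match) in replicates 1 and 2, or 0.967% and 0.984% of all gene counts. Levels are given in TPM, abundances scaled per length to a fixed sum in each library, which can be compared between genes. A mean ± SD is over n = 2 libraries, and where both values are given replicate 1 comes first. Kidney markers were present in both libraries, with all 6 nephron progenitor genes at or above 1 TPM and summing to 477 and 391 TPM, led by Cited1 and Wt1 with Six2 lowest. The 6 ureteric tree genes summed to 502 and 433 TPM (Calb1 and Krt8 highest, Ret lowest), the 5 stromal genes to 1136 and 807 (Col3a1 and Aldh1a2 highest, Foxd1 lowest) and the 5 endothelial genes to 379 and 385 (Egfl7 and Plvap highest, Kdr lowest). Markers of other cell types summed to 106 and 82.7 TPM for leukocytes (Lyz2 and C1qb highest, Fcgr1 lowest), 32.7 and 22.5 for erythroid cells (Alas2 and Slc4a1 highest, Gata1 lowest), 30.7 and 29.3 for skeletal muscle (Tnni1 and Mylpf highest, Myod1 lowest), 32 and 19.98 for liver (Afp and Serpina1a highest, Cps1 lowest) and 22.5 and 19.1 for neurons (Elavl4 and Stmn2 highest, Snap25 lowest). No marker had 0 counts in both libraries. In whole tissue, fewer cells of a type and less RNA per cell cannot be told apart.

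Glycolysis first spends ATP to phosphorylate glucose and split it into triose phosphates, and then regains ATP while the trioses are oxidised to pyruvate. Pyruvate is either reduced to lactate by lactate dehydrogenase or admitted to mitochondrial oxidation by pyruvate dehydrogenase, which its kinases switch off. The pentose phosphate pathway branches off at glucose 6-phosphate: its oxidative arm makes NADPH and its non-oxidative arm exchanges sugars between ribose and glycolytic intermediates. Nephron progenitors of the fetal kidney are known for a high rate of glycolysis, whereas the mature proximal tubule makes glucose.

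At a floor of 1 TPM in both libraries, 35 of the 38 genes were detected. Over all protein-coding genes the share at that floor was 59.0%, and over all genes 33.1%. The 3 genes under the floor in at least 1 library were Hk3, a hexokinase of blood cells, Pklr, the pyruvate kinase of liver and red cells, and Pdk4, a pyruvate dehydrogenase kinase induced by fasting. Hk3 was at 0.66 and 0.39 TPM, Pklr at 1.15 and 0.96, and Pdk4 at 1.98 and 0.93. The list ran from these values up to Gapdh at 1744 ± 2.53 TPM, and its median over members was 34.4 TPM. The 10 highest genes held 85.5% and 86.9% of the summed TPM of all 38.

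Summed over paralogs, the 21 enzymatic steps spanned a wide range of levels. The 5 steps of the ATP-yielding phase, from glyceraldehyde-3-phosphate dehydrogenase to pyruvate kinase, summed to 4875 and 4309 TPM over 9 genes. The 5 steps of the ATP-spending phase, from hexokinase to triosephosphate isomerase, summed to 1485 and 1298 TPM over 10 genes. The oxidative arm of the pentose phosphate pathway summed to 308 and 291 TPM, below the non-oxidative arm at 326 and 338 TPM. In the ordered list of steps, 10 of 20 neighbouring pairs were separated, in that both values of the higher step exceeded both of the lower. Glyceraldehyde-3-phosphate dehydrogenase (1744 ± 2.53) stood above lactate dehydrogenase (1456 ± 93.3) and enolase (1307 ± 124), and the last 2 overlapped. That first rank rested on a short transcript model of Gapdh, described below. Pyruvate kinase (802 ± 216) stood below enolase and above aldolase (529 ± 22.9). Ribose-5-phosphate isomerase was the lowest step, at 3.32 ± 1.10 TPM, below the phosphofructokinase-2 family at 23.5 ± 5.38.

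**Figure D1:**
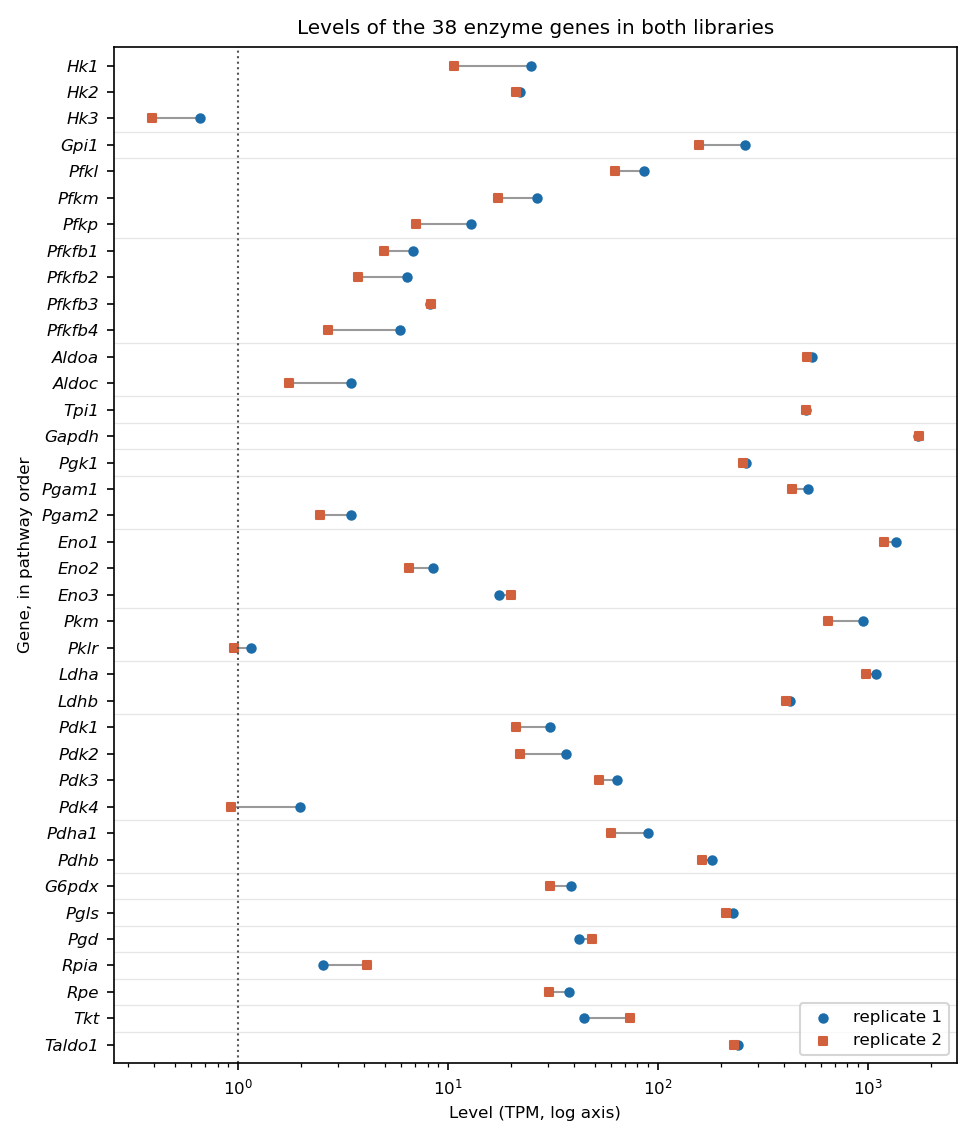
Level of each of the 38 genes in TPM on a log axis, in pathway order from hexokinases at the top to transaldolase at the bottom. Circles are replicate 1, squares replicate 2, a line joins the pair, and the dotted line marks the detection floor of 1 TPM. Hk3, Pklr and Pdk4 have at least 1 value to the left of the floor, and Gapdh, Eno1, Ldha and Pkm lie farthest right.

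Hexokinase, which traps glucose in the cell by phosphorylating it, was among the low steps at 47.6 and 32.2 TPM. Hk1, the housekeeping form, was at 24.8 and 10.7 TPM. Hk2, the form that responds to insulin and low oxygen, was at 22.1 and 21.1 TPM. Hk1 was therefore the higher of the pair in replicate 1, with 52.1% of the step, and Hk2 in replicate 2, with 65.7%. This change of order rested on a short transcript model of Hk2, described below. On coding transcripts alone Hk1 was the higher in both libraries, at 24.2 and 10.55 TPM against 7.12 and 6.82 for Hk2. Hk3 held 1.30% ± 0.123 of the step, from 38 and 25 counts.

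Gpi1, glucose-6-phosphate isomerase, followed at 261 and 156 TPM. Phosphofructokinase-1, the committed and most regulated step, was led by the liver-type subunit Pfkl at 86.1 and 62.3 TPM. The muscle-type subunit Pfkm was at 26.7 and 17.4 TPM and the platelet-type subunit Pfkp at 12.9 and 7.06 TPM. The enzyme is a tetramer that can mix these subunits, and Pfkl supplied 70.1% ± 2.35 of the subunit message. All 3 genes had lower values in replicate 2, and no value of one gene overlapped those of another.

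The bifunctional phosphofructokinase-2 enzymes make and destroy the sugar bisphosphate that activates phosphofructokinase-1. No member of this family dominated. Pfkfb3, the form with the highest kinase activity relative to phosphatase, was at 8.21 and 8.32 TPM and led with 30.1% and 42.2%. Pfkfb1 was at 6.81 and 4.95 TPM, Pfkfb2 at 6.38 and 3.73, and Pfkfb4 at 5.91 and 2.70. The values of these last 3 genes overlapped one another, and all lay below both values of Pfkfb3.

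Aldolase splits the sugar into trioses, and Aldoa, the form of muscle and most other tissues, held 99.5% ± 0.206 of the list's aldolase message. Aldoa was at 542 and 511 TPM, and Aldoc, the brain form, at 3.45 and 1.75 TPM. Tpi1, which interconverts the trioses, was at 506 and 510 TPM.

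Gapdh, the step that oxidises glyceraldehyde 3-phosphate, was at 1742 and 1746 TPM, and 50 of all genes had a higher mean. Pgk1, the X-linked phosphoglycerate kinase that makes the first ATP of this phase, was at 263 and 255 TPM. Pgam1, the widely expressed phosphoglycerate mutase, was at 517 and 438 TPM, against 3.46 and 2.46 TPM for the muscle form Pgam2. Among these steps Pgk1 was thus the lowest, and its values did not overlap those of Gapdh or Pgam1.

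Enolase was almost entirely Eno1, the alpha form, at 1369 and 1193 TPM, which held 98.0% ± 0.214 of the step. Eno3, the muscle beta form, was at 17.6 and 19.97 TPM, and Eno2, the neuronal gamma form, at 8.49 and 6.5 TPM. Of the neuronal markers 4 of 6, and of the muscle markers 4 of 8, were at 1 TPM or more in both libraries, with the sums given above. The part of such cells in the levels of Eno2 and Eno3 was not tested.

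Several of these genes have near-identical processed copies elsewhere in the genome, and reads that match both were shared out by the quantification, so their counts are uncertain to that extent. Gapdh had 71 such copies in the tables at 95% identity or more over at least 300 nt, and together these held 5.78% and 6.30% of the summed counts of gene and copies. For Pgk1 the copies held 10.9% and 9.25%, all of them in Pgk1-rs7 with 1080 and 1008 counts. The copy Pgam1-ps2 held 4.33% and 3.80% for Pgam1, with 791 and 674 counts. For Eno1, Gm4735 (785 and 1036 counts) and Eno1b together held 1.91% and 2.34%. Of the Gapdh copies, Gm10359 had 286 and 238 counts and Gm12070 173 and 330. Of the 38 genes, 8 had at least 1 copy in the tables and for 4 the copies exceeded 1% of the sum. Overlap with a gene on the opposite strand leaves the same kind of doubt for Pfkp (748 nt of exon shared with Pitrm1), Rpe (558 nt with Kansl1l), Pdha1 (425 nt with Map3k15) and G6pdx (278 nt with Ikbkg), and on the same strand for Pgls (404 nt with Fam129c).

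Pyruvate kinase makes pyruvate and ATP, and Pkm held 99.9% ± 0.0193 of its message, at 953 and 648 TPM. Pkm (ENSMUSG00000032294.12) lies at chr9:59656368-59679375 on the plus strand of mm10. Its transcripts carry 1 of 2 mutually exclusive coding exons of 167 nt: the upstream exon gives M1, the form of muscle and brain, and the downstream exon gives M2, the form of embryonic and dividing cells that can be switched between active and inactive states. The exons are shown because the choice between them is what separates the forms. They are printed 5′ to 3′ as in the annotated transcripts, with capitals at the 64 positions where the pair differs (61.7% identity).
M1 exon, chr9:59675029-59675195: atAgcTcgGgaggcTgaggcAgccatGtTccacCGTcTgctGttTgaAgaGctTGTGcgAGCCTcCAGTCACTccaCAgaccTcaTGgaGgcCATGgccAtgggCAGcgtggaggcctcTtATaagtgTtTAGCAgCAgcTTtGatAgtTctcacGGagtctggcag
M2 exon, chr9:59675568-59675734: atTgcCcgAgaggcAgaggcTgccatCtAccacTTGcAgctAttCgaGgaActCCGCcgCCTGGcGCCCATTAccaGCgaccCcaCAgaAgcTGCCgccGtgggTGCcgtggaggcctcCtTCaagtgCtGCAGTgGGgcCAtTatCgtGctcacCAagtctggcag

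The transcript with the M2 exon was at 920 and 627 TPM and the transcript with the M1 exon at 32.6 and 20.9 TPM. M1 thus made up 3.42% and 3.22% of Pkm, close shares in libraries whose total Pkm differed by a TPM ratio of 0.680. The M1 level was above that of Hk2 over all its transcripts in replicate 1 and about equal to it in replicate 2. It was above the coding transcript Hk2-201, at 7.12 and 6.71 TPM, in both. The M2 and M1 transcripts are both 2432 nt long in the tables, so length did not enter their comparison. The M1 model is 2041 nt in the later annotation from which its exon was read, and the M1 share rests on the table's model holding the same exon. Transcripts of proteins known to act on this exon choice were measured for Hnrnpa1 at 890 and 939 TPM, Srsf3 at 801 and 868, and Hnrnpa2b1 at 540 and 381, with Ptbp1 at 262 and 208. Ptbp2, the neuronal relative of Ptbp1, was the lowest of the 5 at 42.97 and 29.96 TPM. Pklr, from 43.7 and 48.1 counts, was assigned to Pklr-201 in replicate 1 (0.80 TPM) and to Pklr-202 in replicate 2 (0.74 TPM), forms that each were listed at 0 in the other library. Its exons overlap those of Hcn3 on the opposite strand by 711 nt, and reads of such a pair cannot be told apart unless strand was used in counting.

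Lactate dehydrogenase is a tetramer of A and B subunits, the A subunit favouring lactate formation. Ldha was at 1097 and 981 TPM and Ldhb at 425 and 409 TPM. The A subunit message therefore exceeded the B subunit message 2.58-fold and 2.40-fold, and the ranges did not overlap. Ldhc, the testis form, had 1 and 0 counts.

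Pyruvate dehydrogenase E1 needs its alpha and beta subunits in equal number. Pdha1, the X-linked alpha subunit, was at 90.2 and 59.9 TPM, and Pdhb, the beta subunit, at 181 and 163 TPM. The alpha to beta ratio was 0.4996 and 0.368. Ldha exceeded Pdha1 12.2-fold and 16.4-fold. The other members of the complex and its pyruvate supply were detected in 8 of 9 cases, with the mitochondrial pyruvate carrier subunits Mpc2 (173 and 168 TPM) and Mpc1 (115 and 130) and the E3 subunit Dld (121 and 103) highest. The regulator Pdpr (6.63 and 2.68 TPM) was the lowest of those detected, and the testis-specific Pdha2 had no counts.

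The pyruvate dehydrogenase kinases, which phosphorylate and inactivate E1, summed to 133 and 96.5 TPM. Pdk3 was at 64.2 and 52.5 TPM and led with 51.3% ± 4.41. Pdk2 was at 36.5 and 22.0 TPM, and Pdk1, known as a hypoxia-induced form, at 30.6 and 21.03 TPM. The values of Pdk1 and Pdk2 overlapped, both lay below Pdk3, and Pdk4 held 1.23% ± 0.369. On coding transcripts alone Pdk1 was at 14.8 and 6.64 TPM and lay below Pdk2, at 32.3 and 17.3 TPM, without overlap.

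In the oxidative arm of the pentose phosphate pathway the committing enzyme was low and the next enzyme high. G6pdx, the X-linked glucose-6-phosphate dehydrogenase, was at 38.7 and 30.8 TPM. Pgls, which opens the lactone product, was at 227 and 212 TPM, 5.86-fold and 6.90-fold above G6pdx. Pgd, which makes further NADPH, was at 42.2 and 48.5 TPM. H6pd, the enzyme of the endoplasmic reticulum that joins the same reactions, was at 8.45 and 4.68 TPM.

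In the non-oxidative arm, Taldo1, transaldolase, was at 241 and 229 TPM and Tkt, transketolase, at 44.4 and 74.1 TPM. Rpe, the epimerase, was at 37.8 and 30.5 TPM, and Rpia, the isomerase that makes ribose 5-phosphate, at 2.54 and 4.10 TPM from 108 and 180 counts. Taldo1 exceeded Tkt 5.42-fold and 3.10-fold. Tkt, Rpia and Pgd were higher in replicate 2, unlike most of the list. The transketolase relatives Tktl1 and Tktl2 had 1 count in each library and no counts.

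Across the 9 steps with paralogs on the list, the leading gene was the same in both libraries in 8, hexokinase being the exception. In 5 steps (aldolase, phosphoglycerate mutase, enolase, pyruvate kinase and, less so, lactate dehydrogenase) the leader held over 70% in each library. Pgam2, Aldoc, Eno2, Eno3 and Pklr each held under 2% of their steps, whereas the liver-type Pfkl and muscle-type Pfkm held 70.1% and 20.6% of theirs. Counting protein-coding transcripts alone gave the same leader by mean in 8 of 9 steps. The exception was again hexokinase, where Hk1 then led in both libraries with 75.7% and 59.4%.

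**Figure D2:**
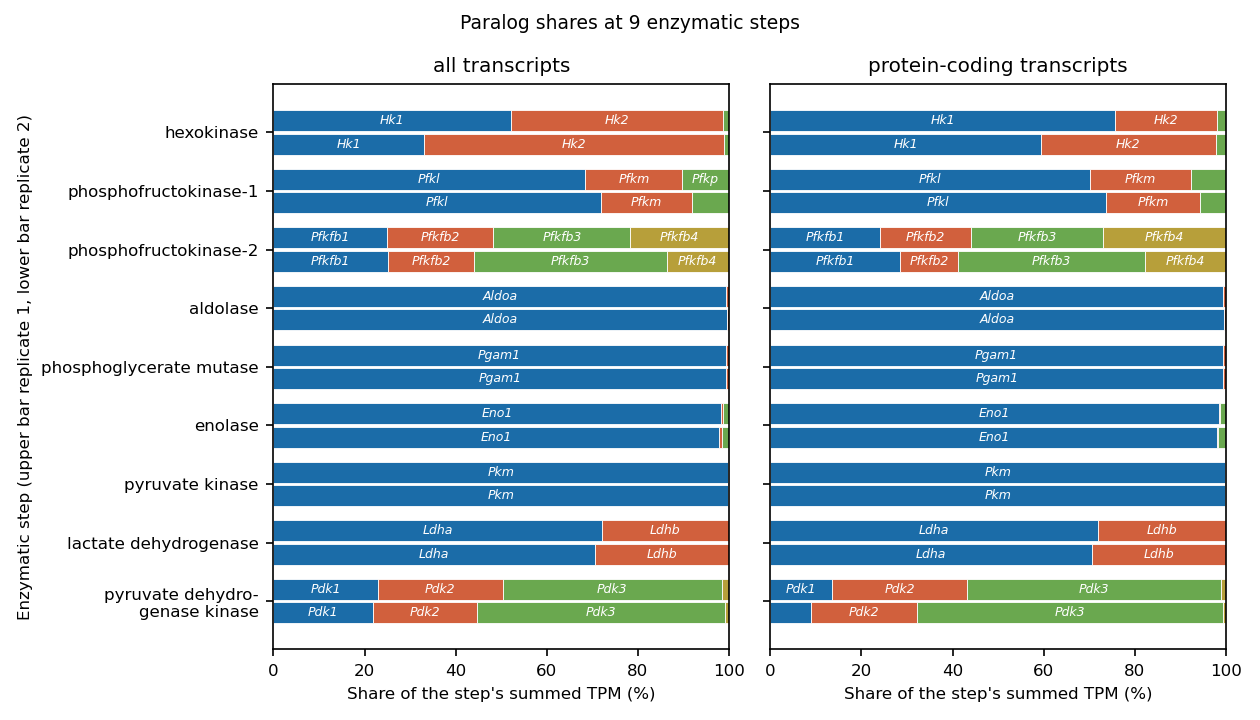
Share of each step's summed TPM held by each paralog, in percent, from all transcripts (left) and from annotated protein-coding transcripts (right); in each pair the upper bar is replicate 1 and the lower bar replicate 2. Segments are in the order of gene number or letter, except that Pkm comes before Pklr, and those above 9% carry the gene name. Hexokinase changes its leader between libraries on the left (Hk1 at 52.1%, then Hk2 at 65.7%) and is led by Hk1 in both on the right.

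The annotation of transcripts mattered for a few genes, because the tables assign part of a gene's level to short models that are not protein-coding. Gapdh (ENSMUSG00000057666.14, chr6:125161715-125166467, minus strand) had 53.1% and 51.1% of its TPM on Gapdh-208, a processed transcript of 483 nt. Every base of that model lies within exons of the coding transcript Gapdh-203. It received 6938 and 7722 of the gene's 27567 and 32411 counts, and its short length turned these into 926 and 893 TPM. On coding transcripts alone Gapdh was at 822 ± 27.8 TPM, below Ldha (1034 ± 80.4) and Eno1 (1252 ± 124), so the rank of Gapdh at the top of the list rested on that model. The coding value leaves out the counts on Gapdh-208, whose reads may stem from Gapdh-203. It can therefore be too low, and the order of Gapdh and Ldha is not settled by it.

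Hk2 (ENSMUSG00000000628.6, chr6:82725025-82774454, minus strand) had 67.8% and 67.7% of its TPM on Hk2-202, a processed transcript of 594 nt that also lies wholly within coding exons. It took 145 and 159 counts, against 752 and 819 on the coding transcript Hk2-201, which stood at 7.12 and 6.71 TPM. Pdk1 had 48.4% and 31.6% on coding transcripts and Eno2 41.9% and 31.7%. Together with Gapdh and Hk2 these were the 4 of 38 genes below 50% coding in both libraries. All 4 were among the 35 detected members, 11.4% of them, against 6.99% of the detected protein-coding genes. Among genes with 2 or more transcripts and 5 TPM in both libraries, the leading transcript was not protein-coding in both for 3 of 27 members (Gapdh, Hk2 and Eno2), against 7.02% of protein-coding genes. The leading transcript was the same in both libraries for 26 of these 27, Pdk1 being the exception, against 89.2% of genes.

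**Figure D3:**
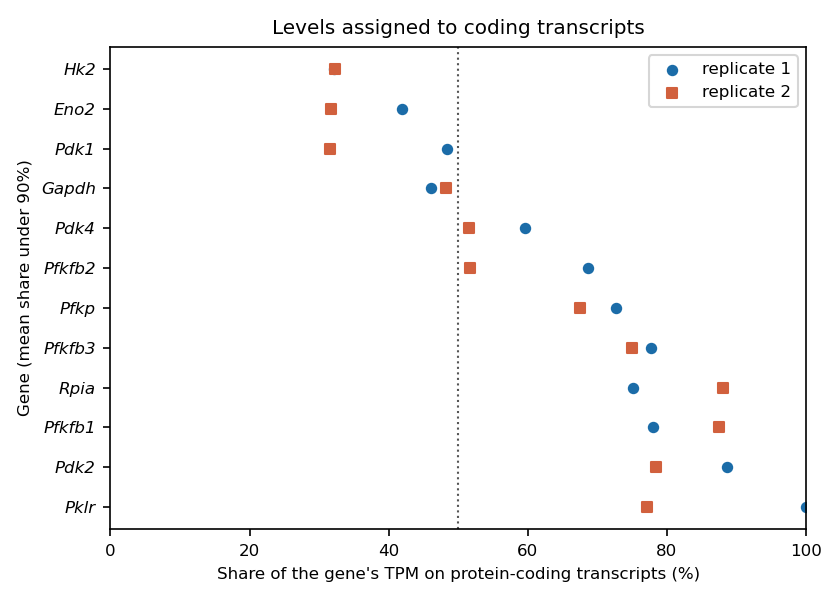
Share of each gene's TPM on annotated protein-coding transcripts, in percent, for the 12 genes with a mean share under 90%. Circles are replicate 1, squares replicate 2, and the dotted line marks 50%. Hk2, Eno2, Pdk1 and Gapdh lie left of the line in both libraries, Gapdh at 46.1% and 48.2%.

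The libraries differed in a way that ran through all genes, which sets the scale for any difference between replicates. Over the 14329 genes at 1 TPM or more in both, the median log2((TPM + 1) ratio) of replicate 2 over replicate 1 was -0.25, and 73.4% of genes were lower in replicate 2. The 35 detected enzyme genes had a median of -0.29, with 28 lower and 7 higher. Relative to the all-gene median, 18 lay below it and 17 above. The list as a whole was thus shifted about as much as other genes.

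The shift depended on transcript length. Among all genes the median log2 ratio was 0.07 under 1500 nt, -0.22 from 1500 to 2500 nt and -0.49 from 2500 nt on. The enzyme genes in the same ranges (9, 15 and 11 genes) had medians of -0.08, -0.20 and -0.58. Across genes, Spearman's rho between length and log2 ratio was -0.56 for all genes and -0.42 for the 35. Genes are not independent replicates, and every point shares the same 2 libraries. Gapdh (log2 0.00), Tpi1 (0.01) and Taldo1 (-0.07) differed little, whereas Gpi1 (-0.74) and Pkm (-0.56) were lower in replicate 2. Tpi1, Gpi1 and Pkm all lie in the range from 1500 to 2500 nt, where the quartiles over all genes were -0.41 and -0.03. Gpi1 had the lowest ratio of the 15 enzyme genes in that range.

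By a rule of size, a gene stood apart when its log2((TPM + 1) ratio) was at least 1 in either direction and its higher value at least 5 TPM. Of the 32 enzyme genes at that level, 1 stood apart as lower in replicate 2 and none as higher, against 4.56% and 1.00% of genes. That gene was Hk1 (ENSMUSG00000037012.14, chr10:62268855-62379908, minus strand), at a log2 ratio of -1.15 and a TPM ratio of 0.429 (0.397 to 0.464, exact conditional binomial interval at 95%, counting error only). Of 6421 genes of 2500 nt or more, 2.76% had a lower ratio than Hk1. The gene had 1875 and 991 counts. Among its transcripts, Hk1-201 was at 6.34 TPM in replicate 1 and listed at 0 in replicate 2, whereas Hk1-202 was at 17.2 and 10.4 TPM. Of the bases of Hk1-201, 96.0% lie within exons of Hk1-202, so the split of reads between them is uncertain. Centred on the all-gene median, no enzyme gene stood apart, Hk1 being at -0.89, while 1.23% of genes stood apart as lower and 1.65% as higher.

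Tkt (ENSMUSG00000021957.6, chr14:30548359-30574720, plus strand) went against this trend with length. It had 2567 and 5102 counts, a log2 ratio of 0.72 and a TPM ratio of 1.67 (1.59 to 1.75). Its transcripts averaged 3059 and 3158 nt, and 13 of 6421 genes of that length range, 0.202%, had a higher ratio. Relative to the all-gene median it was 0.98 higher, just under the size rule. On counts scaled by TMM factors or by DESeq2 size factors, Tkt was the 1 enzyme gene apart, as higher in replicate 2, and Hk1 was not. Over all genes at that level, 0.949% were lower and 1.14% higher by TMM, and 1.18% lower and 1.01% higher by DESeq2 size factors. Rpia (0.53) and Pgd (0.20) had the next highest log2 ratios of the list, and Rpia's TPM ratio of 1.61 had an interval of 1.26 to 2.07.

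**Figure D4:**
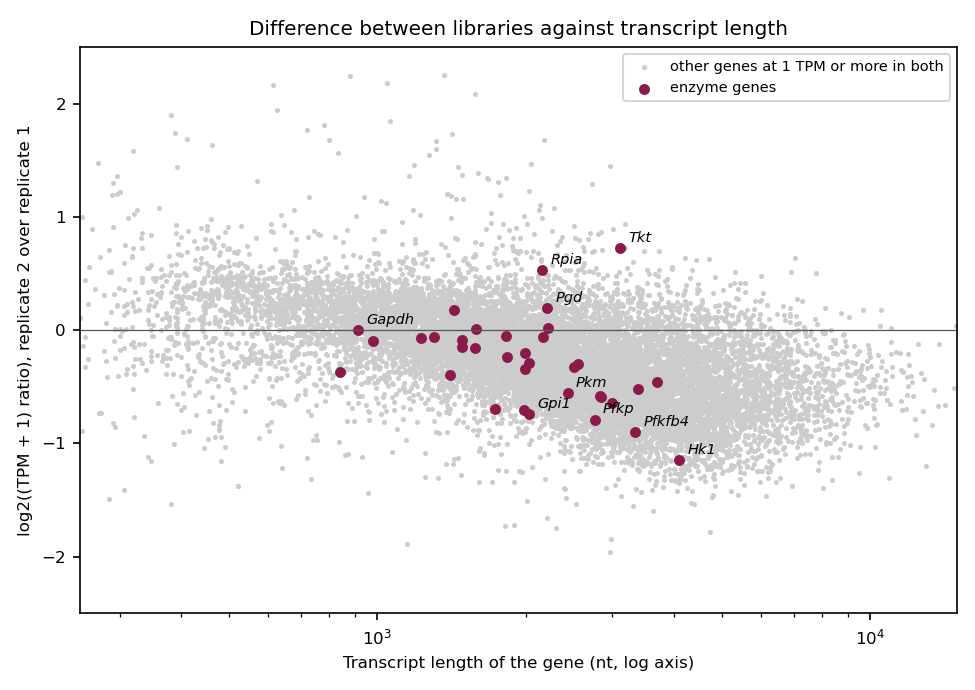
Log2((TPM + 1) ratio) of replicate 2 over replicate 1 against abundance-weighted transcript length in nt on a log axis, for the genes at 1 TPM or more in both libraries. Grey points are other genes and dark points the 35 detected enzyme genes, 9 of them named; 14121 genes lie in the drawn range and 208 outside it. Ratios are lower for longer genes, Hk1 lies at -1.15 and Tkt at 0.72.

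Genes of gluconeogenesis, with a median of 3.06 TPM over members, were lower than the 19 glycolytic genes at 22.1, while the glycogen genes at 21.8 were about level with them. Of 7 gluconeogenic genes 5 were detected, with G6pc3, the widely expressed glucose-6-phosphatase, highest at 33.4 and 37.98 TPM, then Pck2 (18.3 and 12.2) and Pcx (13.1 and 6.97). Pck1 and G6pc, enzymes of the liver and adult proximal tubule, were near or below the floor: Pck1 had 117 and 26 counts (2.33 and 0.45 TPM) and G6pc 3 and 0 counts. All 6 proximal tubule markers were also lower in replicate 2 (sums of 106 and 53.4 TPM, Pdzk1 and Slc34a1 highest, Slc5a12 lowest at 11 and 3 counts), where 73.4% of all genes were lower. Their median log2 ratio was -0.82, and their part in the Pck1 difference was not tested. Of 11 glycogen genes 10 were detected, led by Ugp2 (54.1 and 53.2 TPM), Pgm1 (45.9 and 27.8) and the brain-form phosphorylase Pygb (45.5 and 26.5). The muscle phosphorylase Pygm was lowest of those detected at 12.9 and 11.8 TPM, and the liver glycogen synthase Gys2 had no counts.

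All 6 polyol and glycerol genes were detected, with aldose reductase, Akr1b3, highest at 167 and 146 TPM. Khk, ketohexokinase, was at 24.2 and 20.1 TPM and Sord, sorbitol dehydrogenase, at 18.9 and 10.2. Gpd1l (11.9 and 4.92 TPM) and Gpd1 (1.59 and 2.35 TPM), glycerol-3-phosphate dehydrogenases, were lowest. Of 15 further paralogs 6 were detected, the highest being the ADP-dependent glucokinase Adpgk (33.5 and 24.5 TPM) and bisphosphoglycerate mutase, Bpgm (31.6 and 22.9). Pgk2, the testis phosphoglycerate kinase, and Tktl2 had no counts in either library.

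Promoters of the 38 genes were compared with other promoters in sequence only, since the data hold no measure of binding. RefSeq start sites on GRCm38.p6 gave 59 windows for all 38 genes, each of 300 bases from 250 before to 50 after the start. The hypoxia response element core ACGTG, searched on both strands, was in 35.6% of these windows and in 19.6% of all 32851 promoter windows of the same length. Its variant GCGTG was in 54.2% and 32.4%. The windows of the enzyme genes had a median GC content of 59.0% against 52.7%, and both cores are rich in G and C. The E-box CACGTG, which contains ACGTG, was in 8.47% and 7.15%, and TATAAA was in 5.08% and 13.6%. A match says only that these letters are present.

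Among the 10 genes of highest level, 5 had ACGTG before a start site (Ldha, Pkm, Aldoa, Pgam1 and Pgk1), and 1, Tpi1, had neither core there. These 10 genes had a mean of 1.60 windows. No share over all genes was computed for the 2 cores together. By window, at least 1 of them was in 71.2% of the list's windows and 43.8% of all. By gene, 13 of the 38 (34.2%) had ACGTG before a start, against 18.5% of 27025 genes, with a mean of 1.55 windows per gene in the list and 1.22 over all. The stretches around 1 core of each of the 5 genes named are shown to place ACGTG in its surroundings. They were taken for that core from among the 10 genes of highest level. Gapdh and Eno1, ranked 1 and 2, had only GCGTG before a start. The rest of the 13 genes with ACGTG there were Hk2, Hk3, Pdhb, Pdk2, Pdk3, Pfkfb2, Pfkfb3 and Pfkm, with Hk3 the lowest of the whole list. The stretches are printed 5′ to 3′ on the gene's own strand, with the core or its reverse complement in capitals. None overlaps an annotated exon. The Ldha stretch lies 34 bases before the start and includes an E-box in lower case.
Ldha, chr7:46845752-46845792, plus strand, core 34 bases before the start: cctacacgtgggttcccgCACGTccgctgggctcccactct
Pkm, chr9:59657134-59657174, plus strand, core 75 bases before the start: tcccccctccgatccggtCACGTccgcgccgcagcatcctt
Aldoa, chr7:126799358-126799398, minus strand, core 126 bases before the start: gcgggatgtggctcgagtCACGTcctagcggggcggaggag
Pgam1, chr19:41911739-41911779, plus strand, core 114 bases before the start: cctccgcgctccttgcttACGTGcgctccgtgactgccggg
Pgk1, chrX:106186951-106186991, plus strand, core 131 bases before the start: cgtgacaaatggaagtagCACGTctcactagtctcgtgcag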

How the data were processed

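Whole-kidney total RNA from 2 samples of 1 group was measured. Per the labels the assembly was mm10 and the protocol a Smart-seq method, and the deposited text names GENCODE release M4; the aligner, the quantifier and any use of strand were not given in the sources used here. Per the file headers, which are those that RSEM writes, the deposited tables hold expected counts (estimated reads per feature), TPM (also as posterior mean), FPKM, lengths in nt, and the isoform percent of each transcript. Depth was 29718428 and 29204212 expected counts, and 26248 features with a bare number as name were left out.

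Names, transcript types and exons came from GENCODE M21 on GRCm38, promoters from RefSeq on GRCm38.p6. The members, lists and rules were chosen with earlier results of these data known. Every member is named; of the other pathway lists, up to 3 highest and 2 lowest; of each marker list, the 2 highest and the lowest. Ldhc, Tktl1, Eno1b and the genes that overlap members were named outside this rule, after values were seen. A further gene of the lists is not reported here. Detection meant 1 TPM in both libraries, and ratios used a pseudocount of 1 TPM, which understates differences of low genes. For scaling, expected counts were rounded to whole numbers and passed to edgeR 4.0.16 and DESeq2 1.42.0 in R 4.3.3. Copies were found with blastn 2.17.0. Intervals cover counting error only. The fold rule was tested on simulated libraries. Other steps used scipy 1.17.1, pandas 2.3.3, matplotlib 3.10.9 and numpy 2.4.6 under Python 3.11.15.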

Additional observations from a re-analysis of the deposited data

How the results depend on the processing

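The fold rule depended on the setting: the count of enzyme genes apart was 1 (Hk1), but 2 at a pseudocount of 0.1 (Hk1 and Pfkfb4) and 2 with coding transcripts alone (Hk1 and Pdk1, an alternative chosen after seeing the data), and 0 at a pseudocount of 5, centred on the median of all genes, or with FPKM. By expected counts, without length scaling, the shares of the leading paralog were 40.5% for Hk2, 75.7% for Pfkl, 99.7% for Pgam1, 98.4% for Eno1, 75.3% for Ldha and 44.6% for Pdk3. With coding transcripts alone they were 30.3% for Hk2, 98.3% for Eno1 and 61.4% for Pdk3. By posterior mean TPM they were 97.7% for Eno1 and 99.8% for Pkm, and with further paralogs 97.5% for Eno1. The median level was 40.4 TPM once mitochondrial, haemoglobin and spike-in features were taken out of the scaling, which raised all levels by 16.9% and 17.8% and moved 19 of 38 by more than their SD; coding transcripts alone moved 8 of 38. With each library alone, detection ranged from 35 to 37 of 38, the median level from 30.6 to 38.3 TPM, and the shares from 46.5% to 65.7% for Hk2, 68.5% to 71.8% for Pfkl, 30.1% to 42.2% for Pfkfb3, 99.4% to 99.7% for Aldoa, 99.3% to 99.4% for Pgam1, 97.8% to 98.1% for Eno1, 99.8% to 99.9% for Pkm, 70.6% to 72.1% for Ldha, 48.2% to 54.4% for Pdk3 and 96.6% to 96.8% for M2. The causes were not tested. No paired analysis was possible because there is 1 group only. The share of M2 from transcripts of equal length in both annotations was not run, since no M1 transcript is then left. With 2 libraries the spread is poorly known. For Hk3, Pgam2 and Pklr, with under 100 counts a library, the counting interval of the ratio between libraries includes 1. For Pdk4, with 83 and 40 counts, the interval of 0.314 to 0.693 does not.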
